A study of Mus musculus with 48 samples.

Results

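Splenic conventional CD4 T cells (Tcons) from mice given the attenuated IL-2 mutein 3x were compared with Tcons from mice given wild-type (WT) IL-2. The members are the 8 Tcon libraries labelled with these drugs, of 48 libraries in the series: 4 with 3x and 4 with WT, in each case 2 from mice that received an isotype control antibody and 2 from mice that received an antibody that blocks MHC class II, through which CD4 T cells see antigen. All were female C57BL/6 mice of 8 to 12 weeks, without disease. Each was injected intraperitoneally with 500 µg of antibody, on day -1 and again on day 0, and subcutaneously with 25 µg of IL-2 on day 0, and the spleen was taken on day 4. Both IL-2 molecules are human IL-2 fused to a human IgG1 Fc without effector function, and 3x carries the substitutions V91K, D20A and M104V. Tcons were the cells of a commercial Treg isolation kit that did not bind in the CD25 selection step, so that the control and the treated libraries all come from magnetically enriched cells and not from a gated sort. Each library was 1 mouse, and the same mice gave Treg libraries. No mouse was left without antibody. The 4 Tcon libraries of PBS-treated mice serve as the background, and those of PBS and of H16R, a mutein with 1 substitution, entered the fit of the spread, 16 Tcon libraries in all.

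IL-2 acts through a receptor built of Il2rb and Il2rg, to which Il2ra (CD25) adds high affinity, and signals through JAK1, JAK3 and STAT5. Tregs carry much CD25 at rest, whereas Tcons carry little until antigen activates them, and IL-2 given as a drug can drive Tcons and other cells with Il2rb to divide and to acquire effector functions. A naive Tcon in the spleen is marked by homing and quiescence genes such as S1pr1, Lef1 and Satb1, which are turned down upon activation, while immediate early genes such as Fosb and Egr1 are induced within minutes of receptor stimulation.

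The total expected count per library was 31.31 to 50.18 M over the 8 libraries. All 8 T cell markers were detected, with a summed level of 2960, 3770, 2570 and 2980 CPM with WT and 3420, 3660, 3130 and 3040 CPM with 3x; levels are TMM-normalised CPM, that is, counts scaled to the size of the library, sums are rounded to 3 significant digits, and the values of a molecule are always listed as isotype replicates 1 and 2, then MHC II block replicates 1 and 2. None of these 8 genes was called between 3x and WT by edgeR, DESeq2 or limma, and 1 had an unadjusted p under 0.05. The libraries also held transcripts of other cells, and 3 libraries stood apart from their groups. Isotype WT replicate 2 had a summed level of 10 Treg markers of 1810 CPM, against 387 to 796 CPM in the other 7. Isotype WT replicate 1 and MHC II block WT replicate 1 had the highest erythroid sums, 928 and 614 CPM, and the second of these also had the highest monocyte and macrophage sum, 639 CPM. On the first principal component of the 16 Tcon libraries, with 43.0% of the variance, the isotype WT pair lay at 14.9 and -17.1, whereas the isotype 3x pair lay at -24.8 and -25.6, the MHC II block WT pair at 35.1 and 23.2, and the MHC II block 3x pair at 17.8 and 16.3.

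To ask how Tcon transcripts differed after 3x and WT, 12526 protein-coding genes were tested with antibody as a covariate. At an adjusted p under 0.1, 568 genes (4.53%) were higher and 609 (4.86%) were lower with 3x than with WT, 9.4% in all. Most differences were small, with a median absolute log2 fold change of 0.338 among the called genes, but they were not even in size: of the 154 called genes that differed by at least 1 on the log2 scale, 149 were lower with 3x and 5 were higher. The count depended on single libraries. It was 426 without isotype 3x replicate 2, 475 without isotype 3x replicate 1, 511 without MHC II block WT replicate 1 and 1994 without isotype WT replicate 2. DESeq2 called 1789 genes, a fit of the 8 libraries alone called 240 higher and 504 lower (744 in all), and the mean of the arms in a model of 8 groups called 1100 higher and 1712 lower (2812 in all). With scaling by total counts alone, 1034 genes were called higher and 557 lower, a split less even than that under TMM scaling.

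**Figure D1:**
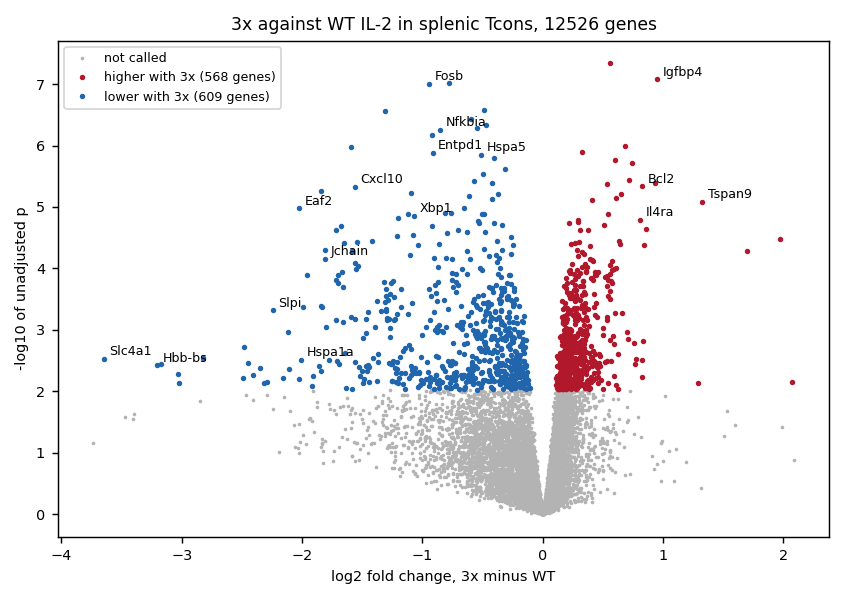
Log2 fold change of 3x minus WT (horizontal axis) against the -log10 of the unadjusted p (vertical axis) for 12526 genes in Tcons, 1 point per gene, from 4 libraries of each molecule. The 568 genes called higher lie mostly within 1 log2 unit, while the 609 called lower reach beyond -3.

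Among genes with a mean above 5 CPM, the 12 largest rises with 3x over WT included the receptor chain, survival and binding-protein genes Il4ra, Bcl2 and Igfbp4. Igfbp4, which encodes an insulin-like growth factor binding protein and is a marker of naive CD4 T cells (chr11:99041244-99054392), was at 258, 228, 274 and 357 CPM with WT and 551, 494, 555 and 532 CPM with 3x (log2 fold change 0.95 ± 0.09 (SE), adjusted p = 0.00031). Every 3x library was above every WT library. In one direction or the other, the molecules did not overlap for 1059 of the 12526 genes (8.45%). Among the 1177 called genes, from which these 12 were picked, they did not overlap for 693. Bcl2, the survival factor (chr1:106538178-106714274), was at 113, 132, 131 and 135 CPM with WT and 244, 189.8, 252 and 218 CPM with 3x (log2 fold change 0.83 ± 0.11 (SE), adjusted p = 0.0021). The lowest 3x value lay above the highest WT value here too. Il4ra, the IL-4 receptor alpha chain (chr7:125552120-125579474), was at 361, 335, 237 and 316 CPM with WT and 476, 490.1, 673 and 553 CPM with 3x (log2 fold change 0.81 ± 0.13 (SE), adjusted p = 0.0042), again without overlap. Tspan9, a tetraspanin membrane protein, had the largest rise of the 12, from 7.37 to 9.21 CPM with WT to 11.6 to 33.7 CPM with 3x (1.33 ± 0.19, adjusted p = 0.0028), and its higher values were those of the MHC II block 3x libraries. The other 8 were Tmie (0.86), Pdlim4 (0.84), Gm45234 (0.83), Spsb1 (0.77), Als2cl (0.74), Ppp1r3f (0.71), Scin (0.70) and Treml2 (0.68), all log2 fold changes; 9 of the 12 did not overlap between the molecules.

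Against PBS, Igfbp4 and Bcl2 were lower with WT and higher with 3x, and Il4ra was called only with 3x. Igfbp4 was -0.33 ± 0.09 (adjusted p = 0.029) with WT and 0.61 ± 0.09 (adjusted p = 0.0036) with 3x, both log2 fold changes against PBS, and Bcl2 was -0.47 ± 0.11 (adjusted p = 0.016) with WT and 0.35 ± 0.11 (adjusted p = 0.090) with 3x. Il4ra was -0.20 ± 0.12 (adjusted p = 0.28) with WT and 0.61 ± 0.12 (adjusted p = 0.016) with 3x. These comparisons share the PBS libraries and, with the main comparison, the IL-2 libraries, so they are not independent of it. Over all genes, WT against PBS called 27.2%, with 14.8% higher and 12.4% lower, and 3x against PBS called 9.88%, with 4.71% higher and 5.17% lower.

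**Figure D2:**
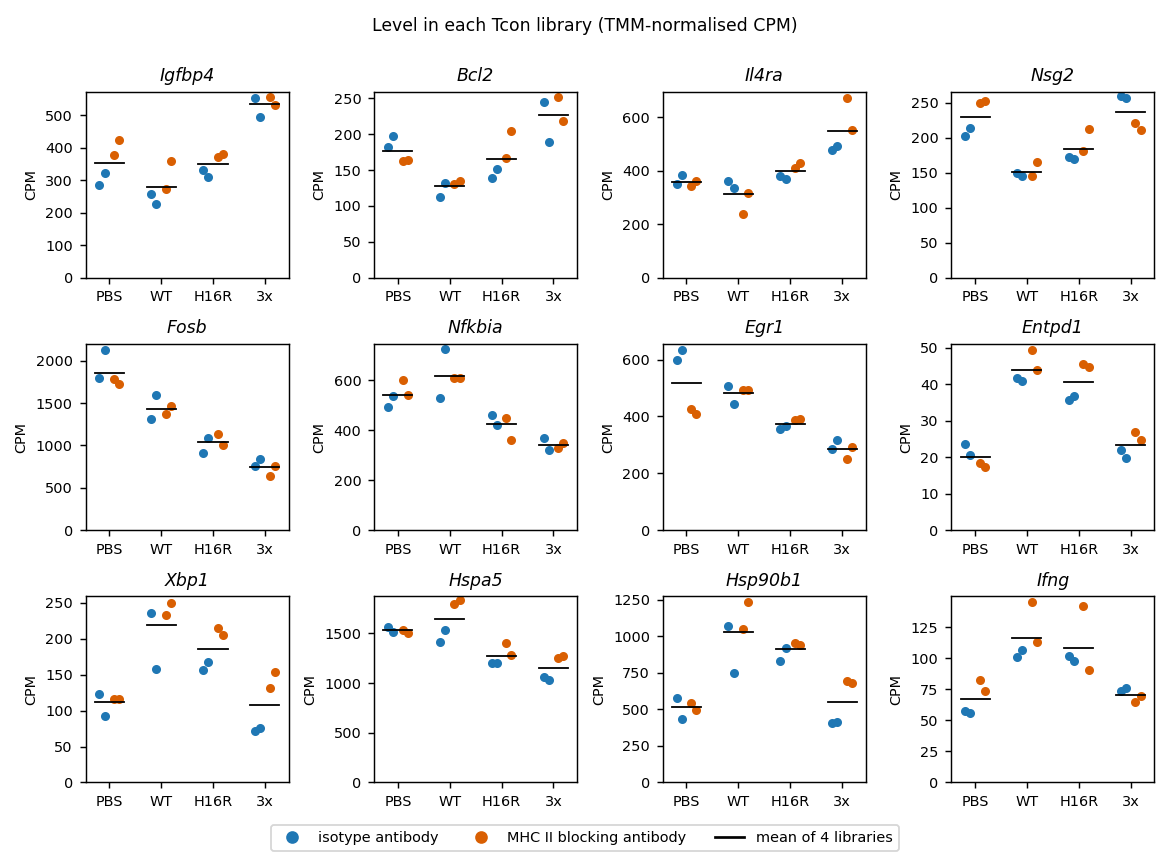
Level of 12 genes in each of the 16 Tcon libraries, in TMM-normalised CPM (vertical axes, from 0), by molecule (horizontal axes); points are single libraries coloured by antibody, and bars are means of 4 libraries. For Igfbp4, Bcl2, Il4ra and Nsg2 the 3x points lie above the WT points, and for Fosb, Nfkbia, Egr1, Entpd1, Xbp1, Hspa5, Hsp90b1 and Ifng they lie below.

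The called genes of the naive and recirculation program were all higher with 3x. Of 26 tested members, 11 were higher and 0 were lower (background 4.53% and 4.86%), with a median log2 fold change of 0.31, against -0.01 over all tested genes. Apart from Igfbp4 these included Nsg2, an endosomal protein of naive T cells, at 149, 145, 146 and 166 CPM with WT and 260.3, 257, 222 and 212 CPM with 3x (log2 fold change 0.65 ± 0.09 (SE), adjusted p = 0.0024), without overlap. Bach2, a repressor of effector differentiation, was at 73.1, 87.9, 74.7 and 73.3 CPM with WT and 125, 137, 93.4 and 91.3 CPM with 3x (log2 fold change 0.52 ± 0.10 (SE), adjusted p = 0.011). Satb1, a chromatin organiser, was at 408, 346, 386 and 429 CPM with WT and 552, 606, 513 and 441 CPM with 3x (log2 fold change 0.43 ± 0.09 (SE), adjusted p = 0.016). In these 3 genes the isotype 3x libraries were the highest of the 8. S1pr1, the receptor for exit into blood and lymph (0.47), Lef1 (0.41), Actn1 (0.53), St8sia1 (0.42), Il6ra (0.37) and Foxp1 (0.30) were also among the 11. Ccr7 missed the threshold (0.44 ± 0.18, adjusted p = 0.16); its 3x levels were 624 and 732 CPM with isotype and 361 and 380.3 CPM with MHC II block. Ets1, the member with the highest level among those not called, was 0.21 ± 0.11, adjusted p = 0.26. Against PBS, 15 of the 26 were lower with WT and 0 with 3x, where 12.4% and 5.17% of all genes were. The count of 11 fell to 5 without either isotype 3x library or without MHC II block WT replicate 1, and to 7 without isotype WT replicate 1.

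T cell signalling lists had 2 to 5 called genes each, where 9.4% of all genes were called. Of 32 genes of the T cell receptor (TCR) complex and its proximal signalling, 4 were higher and 0 lower, among them Csk, a kinase that restrains Lck (0.16 ± 0.04, adjusted p = 0.024), the adaptor Grap2 (0.27 ± 0.07, adjusted p = 0.057) and Vav1 (0.15 ± 0.05, adjusted p = 0.079), a guanine nucleotide exchange factor. Ptprc (CD45) was -0.01 ± 0.09, adjusted p = 0.96. Of 27 PI3K, Akt, mTOR and Foxo genes, 4 were higher and 1 lower, among them Pik3cd, the leukocyte catalytic subunit, at 685, 655, 720.1 and 766 CPM with WT and 925, 971, 848 and 819 CPM with 3x (log2 fold change 0.33 ± 0.07 (SE), adjusted p = 0.013), and the regulatory subunit Pik3r5 (0.40 ± 0.08, adjusted p = 0.011). Pik3ip1, an inhibitor of PI3K, was higher (0.45 ± 0.13, adjusted p = 0.063), and Pik3cg was lower (-0.14 ± 0.04, adjusted p = 0.065). Foxo1 was 0.24 ± 0.10, adjusted p = 0.19. Of 22 chemokine and trafficking receptors, S1pr1 and Gpr183 were higher (0.45 ± 0.10, adjusted p = 0.024 for the latter), and of 27 coreceptors Cd96 (0.26 ± 0.07, adjusted p = 0.050) and Cd40lg (0.46 ± 0.14, adjusted p = 0.079) were higher, with 0 lower in both lists. Most members of these last lists had a log2 fold change below 0, 15 of 22 receptors and 18 of 27 coreceptors, with medians of -0.26 and -0.14.

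Receptors for cytokines other than IL-2 were called in both directions. Of 26 tested, 6 were higher and 5 lower with 3x (background 4.53% and 4.86%). Besides Il4ra and Il6ra, Ifngr2 (0.56 ± 0.11, adjusted p = 0.015), Tgfbr3 (0.55 ± 0.12, adjusted p = 0.017), Il17ra (0.16) and Il21r (0.34) were higher. Il18rap, the accessory chain of the IL-18 receptor, was at 100.5, 144, 143 and 100.5 CPM with WT and 72.9, 78.7, 77.8 and 66.8 CPM with 3x (log2 fold change -0.72 ± 0.14 (SE), adjusted p = 0.013), without overlap. Its partner Il18r1 (-0.50), together with Il10ra (-0.44), Il15ra (-0.36) and Ifnar2 (-0.14), was lower as well. Il7r did not pass (0.23 ± 0.16, adjusted p = 0.43); it was at 263, 314, 251 and 289 CPM with WT and 473, 434, 221 and 231 CPM with 3x, above WT in both isotype 3x libraries and below WT in both MHC II block 3x libraries.

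Of the IL-2 pathway itself, 6 of 26 genes were called between the molecules on day 4, where 9.4% of all genes were. Of these 26 genes of the IL-2 receptor and the JAK-STAT5 pathway, 2 were higher, Bcl2 and the cyclin Ccnd2 (0.26 ± 0.08, adjusted p = 0.073), and 4 were lower. Those were Xbp1, described with the secretory genes, the kinase Pim1 (-0.39 ± 0.09, adjusted p = 0.031), the cytokine Lta (-0.31) and the feedback inhibitor Socs2. Socs2 was at 23.2, 34.5, 21.5 and 18.1 CPM with WT and 21.8, 21.5, 16.2 and 15.7 CPM with 3x (log2 fold change -0.37 ± 0.12 (SE), adjusted p = 0.086), and isotype 3x overlapped WT. The receptor chains did not pass the threshold: Il2ra was 0.06 ± 0.13, adjusted p = 0.804, Il2rb -0.10 ± 0.09, adjusted p = 0.54 and Il2rg 0.07 ± 0.07, adjusted p = 0.597, and the STAT5 target Cish was -0.10 ± 0.14, adjusted p = 0.700. Jak1, the highest of the members not called, was 0.13 ± 0.07, adjusted p = 0.29. Against PBS, Il2ra was 1.26 ± 0.14 (adjusted p = 0.00032) with WT and 1.32 ± 0.14 (adjusted p = 0.00027) with 3x, and Socs2 was 1.45 ± 0.12 (adjusted p = 6.1e-05) with WT and 1.08 ± 0.12 (adjusted p = 0.00043) with 3x. Both genes were higher than PBS with either molecule.

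Of 28 genes of the Treg program, 0 were higher and 4 lower with 3x (background 4.53% and 4.86%), with a median of -0.36. Entpd1 (CD39), an enzyme that breaks down extracellular ATP, was at 41.6, 40.9, 49.3 and 44.0 CPM with WT and 21.9, 19.8, 26.8 and 24.7 CPM with 3x (log2 fold change -0.92 ± 0.11 (SE), adjusted p = 0.0011), so that WT libraries were 1.89 times the 3x libraries and did not overlap them. Against PBS it was 1.13 ± 0.11 (adjusted p = 0.00024) with WT and 0.22 ± 0.11 (adjusted p = 0.27) with 3x. Il10 was lower (-1.24 ± 0.26, adjusted p = 0.017), as were the actin-capping gene Capg (-0.35 ± 0.09, adjusted p = 0.046) and Socs2. The defining genes did not pass: Foxp3 was 0.06 ± 0.28, adjusted p = 0.92, Ikzf2 -0.53 ± 0.31, adjusted p = 0.31, Ctla4 -0.64 ± 0.38, adjusted p = 0.33 and Tnfrsf18 -0.16 ± 0.14, adjusted p = 0.505. Ctla4 was at 201, 606, 93.9 and 145 CPM with WT and 216, 149, 128 and 130.1 CPM with 3x, so that isotype WT replicate 2 alone held more than any other library. All 10 Treg markers were detected, and the part of their level in that library in these results was not tested.

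The called effector genes were all lower with 3x. Of 30 effector and memory helper T genes, 0 were higher and 7 lower (background 4.53% and 4.86%), with a median of -0.33. Ifng, the cytokine of type 1 responses, was at 101, 107, 145 and 113 CPM with WT and 73.3, 75.8, 64.4 and 69.4 CPM with 3x (log2 fold change -0.70 ± 0.14 (SE), adjusted p = 0.013), without overlap. Prdm1, the transcription factor Blimp-1 of effector T cells and also of plasma cells, was at 33.4, 48.5, 32.2 and 39.5 CPM with WT and 23.9, 17.7, 23.8 and 22.1 CPM with 3x (log2 fold change -0.81 ± 0.12 (SE), adjusted p = 0.0036). Cd44, the marker of antigen-experienced cells, was -0.30 ± 0.07, adjusted p = 0.024, and Il18rap, Il18r1, Ahnak (-0.75) and the chemokine Ccl5 (-0.73) made up the 7. Against PBS, Ifng was 0.79 ± 0.14 (adjusted p = 0.0034) with WT and 0.09 ± 0.14 (adjusted p = 0.74) with 3x. Of 23 tested helper lineage factors and cytokines, 0 were higher and 3 lower, against the same background: Ifng, Irf4 and Tnf (-0.66 ± 0.15, adjusted p = 0.027). Tnf was at 32.8, 42.4, 122 and 107 CPM with WT and 25.2, 33.2, 55.0 and 63.6 CPM with 3x, with its high values in the MHC II block WT libraries. Itgal (-0.11 ± 0.11, adjusted p = 0.59) and Cxcr3 (-0.33 ± 0.17, adjusted p = 0.27) did not pass. All 10 NK cell markers had a log2 fold change below 0, with a median of -0.48, 3 were called lower with 3x in each arm (background 12.8% with isotype and 3.4% with MHC II block), and 6 were higher with WT than with PBS (background 14.8%). Ifng, Ccl5, Il18rap and Il18r1 are also expressed by NK cells, whose part in these results was not tested. None of 19 follicular helper and exhaustion genes passed with edgeR, DESeq2 or limma, and 0 had an unadjusted p under 0.05, with Slamf6 at -0.04 ± 0.17, adjusted p = 0.92. With edgeR, the count of 7 effector genes was 4 without MHC II block WT replicate 1. DESeq2 called 11 of the 30 lower, where it called 995 of 12526 genes lower.

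The called immediate early and other TCR response genes were all lower with 3x, in either antibody arm. Of 33 tested, 0 were higher and 9 lower (background 4.53% and 4.86%), with a median of -0.35. Fosb, a subunit of AP-1 (chr7:19302696-19310051), was at 1314, 1594, 1369 and 1461 CPM with WT and 757, 839, 642 and 752 CPM with 3x (log2 fold change -0.94 ± 0.09 (SE), adjusted p = 0.00031). The WT and 3x ranges were far apart, and the PBS range of 1727 to 2123 CPM lay above both, so that Fosb was -0.37 ± 0.09 (adjusted p = 0.020) with WT against PBS and -1.31 ± 0.09 (adjusted p = 2.1e-05) with 3x against PBS. Nfkbia, the NF-κB inhibitor IκBα and itself an NF-κB target, was at 532, 726, 608 and 609 CPM with WT and 370.2, 320.5, 330.0 and 349 CPM with 3x (log2 fold change -0.85 ± 0.10 (SE), adjusted p = 0.00069). Egr1, a zinc finger immediate early factor, was at 506, 443, 493 and 494 CPM with WT and 286, 317, 250.1 and 293 CPM with 3x (log2 fold change -0.76 ± 0.12 (SE), adjusted p = 0.0036). Neither gene overlapped between the molecules. Nr4a1, a reporter of TCR signal strength, was -0.35 ± 0.07, adjusted p = 0.014, and Ier2 (-0.36), Fos (-0.44), Nfkbid (-0.37), Cd69 (-0.51) and Irf4 (-0.55) were lower as well. Jun, at 2859, 2257, 3626 and 3616 CPM with WT and 2613, 2965, 2097 and 2369 CPM with 3x, did not pass (-0.29 ± 0.14, adjusted p = 0.22). Against PBS, 4 of the 33 were lower with WT and 15 with 3x (background 12.4% and 5.17%), so that the share with WT was near that of all genes. Per length, Fosb stood at a mean of 389 FPKM with WT and 202 FPKM with 3x, above Egr1 at 149 and 89.3 FPKM. The count of 9 was 7 to 12 with any 1 of the 8 libraries left out. It was 15 with DESeq2, which called 995 of 12526 genes lower.

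Plasma cell transcripts were lower with 3x than with WT. All 6 plasma cell markers were detected and all 6 were lower (background 4.86%), with a median log2 fold change of -1.70, and their summed level was 3290, 1630, 3000 and 3110 CPM with WT and 456, 582, 1040 and 1470 CPM with 3x. The ranges did not overlap, 5 or 6 of the 6 were called with any 1 library left out, and PBS libraries lay at 856 to 1480 CPM. Jchain, the chain that joins IgM and IgA multimers, was at 2429, 1230.0, 2114 and 2234 CPM with WT and 287, 387, 671 and 1032 CPM with 3x (log2 fold change -1.81 ± 0.32 (SE), adjusted p = 0.0085). Mzb1, an ER cochaperone of antibody-secreting cells, was at 232, 120.4, 255 and 256 CPM with WT and 38.5, 46.0, 92.1 and 107 CPM with 3x (log2 fold change -1.65 ± 0.28 (SE), adjusted p = 0.0063). Sdc1 (CD138) was -1.70 ± 0.32, adjusted p = 0.011 and Derl3, of ER-associated degradation, -1.70 ± 0.33, adjusted p = 0.013. Immunoglobulin genes took 4.28, 2.22, 3.58 and 3.86% of all counts in the WT libraries and 0.63, 0.684, 1.31 and 1.81% in the 3x libraries, again without overlap. In a fit of all biotypes, chosen after these values were seen, 117 of 195 tested immunoglobulin genes were lower with 3x and 0 were higher, where 5.14% of 14973 genes were lower, 4.84% higher and 9.98% called in all. In bulk RNA, fewer cells of a type and less RNA per cell cannot be told apart.

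Several of the largest falls had their lowest values in the libraries with the lowest plasma cell sums. Eaf2, an elongation factor partner of late B cells and plasma cells, was at 31.8, 18.3, 34.9 and 35.2 CPM with WT and 3.58, 3.97, 12.1 and 12.0 CPM with 3x (log2 fold change -2.03 ± 0.30 (SE), adjusted p = 0.0034). Fkbp11, an ER prolyl isomerase of secretory cells, was -1.84 ± 0.40, adjusted p = 0.020, and the protease inhibitor Slpi was at 43.7, 76.2, 42.1 and 35.8 CPM with WT and 5.74, 4.83, 15.7 and 21.9 CPM with 3x (log2 fold change -2.24 ± 0.49 (SE), adjusted p = 0.021). Reln, a secreted matrix glycoprotein, was at 16.8, 10.5, 13.7 and 16.3 CPM with WT and 2.45, 2.65, 5.16 and 6.36 CPM with 3x (log2 fold change -1.84 ± 0.26 (SE), adjusted p = 0.0024). In Eaf2, Slpi and Reln the 2 isotype 3x libraries were the lowest of the 8, as they were for the plasma cell sum, whereas the highest Slpi value was in isotype WT replicate 2, the WT library with the lowest plasma cell sum. The part of plasma cell transcripts in the results on secretory genes, Prdm1, Irf4 and Entpd1 was not tested. In the Treg libraries of the same mice the 6 markers summed to 822, 856, 3820 and 2530 CPM with WT and 178, 207, 1040 and 1660 CPM with 3x.

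ER chaperones and heat shock genes had the largest share of called members of the 24 pathway lists. Of 26 tested, 0 were higher and 15 lower with 3x (background 4.53% and 4.86%), with a median of -0.32. Because many of them moved together, their promoters were searched for the ER stress response element, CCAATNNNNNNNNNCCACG on either strand, a site bound by NF-Y and ATF6 that was picked after the counts were seen. RefSeq promoter windows on GRCm38, from 250 bases before to 50 after the start, were matched by symbol for 21 of the 26. The element was in 6 of these 21 genes (28.6%), of which 5 were lower, and 9 of the 15 without it were lower too. It was in 7 of 468 genes lower with 3x (1.5%), 5 of them the chaperone genes just counted, and in 0 of 446 genes higher with 3x. As background, it was in 17 of 9890 tested genes (0.172%) and in 39 of all 32851 windows (0.119%). The element was chosen with this list in view, so its share in the list was not a test. The 250 bases before the start are shown for the 5 chaperone genes that hold it and were lower, with the element in capitals: Hspa5, chr2:34771840-34772089, plus strand, Hsp90b1, chr10:86705445-86705694, minus strand, Creld2, chr15:88819396-88819645, plus strand, Pdia6, chr12:17266339-17266588, plus strand, Calr, chr8:84846932-84847181, minus strand.
Hspa5: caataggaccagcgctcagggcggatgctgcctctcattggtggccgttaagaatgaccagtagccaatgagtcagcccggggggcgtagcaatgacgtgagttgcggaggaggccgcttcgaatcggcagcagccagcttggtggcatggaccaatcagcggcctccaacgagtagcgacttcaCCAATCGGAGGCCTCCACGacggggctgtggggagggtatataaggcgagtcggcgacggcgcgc
Hsp90b1: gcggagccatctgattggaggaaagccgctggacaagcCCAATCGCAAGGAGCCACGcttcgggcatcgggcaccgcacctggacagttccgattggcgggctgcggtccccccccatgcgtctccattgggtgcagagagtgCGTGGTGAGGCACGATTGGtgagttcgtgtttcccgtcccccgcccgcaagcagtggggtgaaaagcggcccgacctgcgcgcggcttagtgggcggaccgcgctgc
Creld2: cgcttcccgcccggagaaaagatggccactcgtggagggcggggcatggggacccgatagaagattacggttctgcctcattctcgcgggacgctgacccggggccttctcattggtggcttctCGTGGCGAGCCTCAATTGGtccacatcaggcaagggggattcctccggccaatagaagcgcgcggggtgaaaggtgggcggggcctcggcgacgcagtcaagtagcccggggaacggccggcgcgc
Pdia6: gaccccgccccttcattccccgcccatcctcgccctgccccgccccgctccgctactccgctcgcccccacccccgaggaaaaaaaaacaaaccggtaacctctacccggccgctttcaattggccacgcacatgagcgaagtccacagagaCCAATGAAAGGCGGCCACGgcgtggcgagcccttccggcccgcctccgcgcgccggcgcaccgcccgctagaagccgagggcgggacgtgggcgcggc
Calr: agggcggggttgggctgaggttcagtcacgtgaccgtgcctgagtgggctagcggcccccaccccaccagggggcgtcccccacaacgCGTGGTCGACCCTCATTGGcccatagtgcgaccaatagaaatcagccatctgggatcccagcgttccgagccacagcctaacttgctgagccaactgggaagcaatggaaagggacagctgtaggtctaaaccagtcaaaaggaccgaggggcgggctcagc

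Hsp90b1 holds the element on both strands, and Canx, the other gene of the 6, was -0.12 ± 0.07, adjusted p = 0.33. A match is only a description of these letters. The shorter CCAAT box, which the element contains, was in 17 of the 21 (81%), against 42.9% of tested genes. Other motifs were searched as well. The STAT motif TTCNNNGAA was in 9.19% of genes higher and 9.19% of genes lower with 3x and in 8.32% of all tested genes with a window. In the same order, TTTGAA, planned as part of the cell cycle homology region (CHR), was in 11.7%, 16% and 14.8%. The E-box CACGTG was in 14.6%, 10% and 11.6%, and the cAMP response element TGACGTCA in 0.673%, 2.14% and 3.49%. The interferon response element, GAAA repeated after any 2 bases, was in 2.69%, 4.27% and 4.04%, and the ATF6/XBP1 site TGACGTGG, added after the counts were seen, in 0, 2.78% and 1.02%. All were searched on both strands.

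Of the genes shown, Hspa5 (BiP), the main ER chaperone, was at 1416, 1534, 1799 and 1832 CPM with WT and 1058, 1034, 1251 and 1273 CPM with 3x (log2 fold change -0.51 ± 0.06 (SE), adjusted p = 0.0011), without overlap. Hsp90b1 (Grp94), a chaperone of secreted and membrane proteins, was at 1073, 753, 1053 and 1233 CPM with WT and 405, 417, 696 and 682 CPM with 3x (log2 fold change -0.92 ± 0.15 (SE), adjusted p = 0.0045). Both were lower in every 3x library, but their positions against PBS differed: Hspa5 was 0.10 ± 0.06 (adjusted p = 0.300) with WT and -0.42 ± 0.06 (adjusted p = 0.0041) with 3x, whereas Hsp90b1 was 0.98 ± 0.15 (adjusted p = 0.0018) with WT and 0.06 ± 0.15 (adjusted p = 0.84) with 3x. Creld2 (-1.11), Pdia6 (-0.63) and Calr (-0.34) were lower by varied amounts. Xbp1, the transcription factor of the unfolded protein response, was at 236, 157, 234 and 249.9 CPM with WT and 71.3, 75.1, 132 and 153 CPM with 3x (log2 fold change -1.07 ± 0.16 (SE), adjusted p = 0.0038). Manf (-0.63), Pdia4 (-0.80), Herpud1 (-0.50), Sdf2l1 (-0.87) and Pdia3 (-0.18) were the other ER genes. The cytosolic heat shock genes were more variable. Hspa1a was at 110.2, 72.3, 278 and 92.5 CPM with WT and 7.98, 23.3, 28.4 and 82.0 CPM with 3x (log2 fold change -2.01 ± 0.56 (SE), adjusted p = 0.059), and the groups overlapped; its near-identical copy Hspa1b was -1.84 ± 0.55, adjusted p = 0.072, and how reads were divided between them is uncertain. Hspb1 (-1.42 ± 0.24, adjusted p = 0.0062) and Dnajb1 (-0.30) were lower, while Hspa8, the constitutive member with the highest level among those not called, was -0.16 ± 0.08, adjusted p = 0.26. The count of 15 ranged from 9, without isotype 3x replicate 2, to 17 with any 1 library left out.

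**Figure D3:**
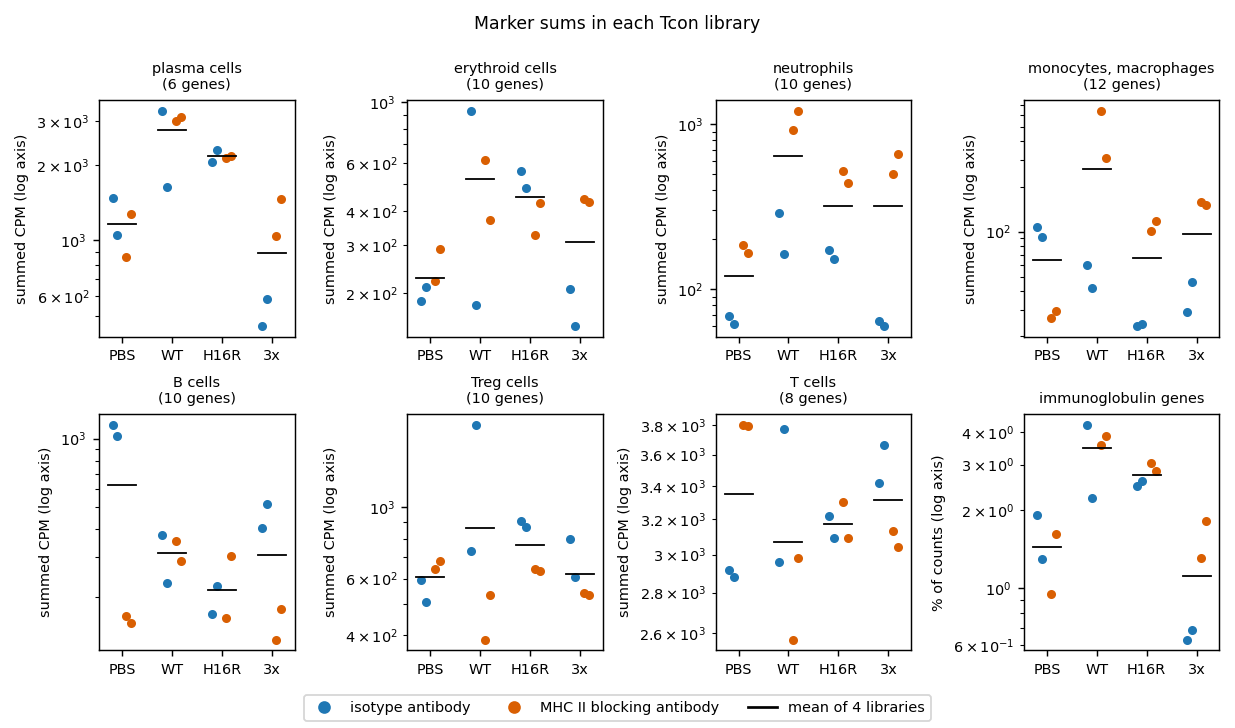
Summed level of the markers of 7 cell types, in CPM, and share of counts on immunoglobulin genes, in percent, in each of the 16 Tcon libraries (log vertical axes), by molecule; points are single libraries coloured by antibody and bars are means of 4 libraries. For plasma cells and immunoglobulin the 3x points lie below all WT points, while for the other 6 marker sums the groups overlap.

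Among markers of other cells, 5 of 9 tested erythroid genes were lower with 3x and 0 were higher, where 4.86% and 4.53% of all genes were. Hbb-bs, a beta globin, was at 79.0, 4.53, 49.7 and 8.5 CPM with WT and 1.13, 1.1, 10.0 and 2.36 CPM with 3x (log2 fold change -3.20 ± 0.92 (SE), adjusted p = 0.064), so that 2 WT libraries, isotype WT replicate 1 and MHC II block WT replicate 1, held the highest values. Hbb-bt (-3.17), the alpha globin Hba-a1 (-3.03) and Alas2 (-2.82), the first enzyme of erythroid haem synthesis, were lower as well, and Slc4a1, the red cell anion exchanger, was at 66.6, 4.68, 35.7 and 4.99 CPM with WT and 0.548, 0.567, 5.3 and 1.37 CPM with 3x (log2 fold change -3.65 ± 1.01 (SE), adjusted p = 0.058). Globin genes have near-identical copies, so their counts are uncertain one by one. None of the 5 was called without either of those WT libraries or without 3 of the 3x libraries. Sec14l2 (-1.86 ± 0.54, adjusted p = 0.065) and the macrophage mannose receptor Mrc1 (-2.29 ± 0.72, adjusted p = 0.087) were also among the 12 largest falls. The erythroid sums were 181 to 928 CPM with WT and 152 to 441 CPM with 3x, with 1 of 10 genes without a value in any library.

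Of 9 tested neutrophil and granule genes, 2 were lower with 3x, where 4.86% of all genes were: Mpo (-1.11 ± 0.34, adjusted p = 0.081) and Elane (-1.19 ± 0.37, adjusted p = 0.081), enzymes of immature granulocytes. The neutrophil sum was 289, 163, 918 and 1200 CPM with WT and 64.6, 60.0, 497 and 659 CPM with 3x. S100a9 was -1.97 ± 1.01, adjusted p = 0.26. No member of the B cell (10 tested), NK cell (10), CD8 T cell (2), monocyte and macrophage (10), dendritic cell (8), eosinophil and basophil (8) or Treg (10) lists was called by edgeR in the comparison over both arms. At an unadjusted p under 0.05 there were 0, 3, 0, 6, 0, 2 and 1 genes in these lists, and DESeq2 called 0, 2, 0, 3, 0, 0 and 0, and limma 0, 2, 0, 0, 0, 0 and 0, in that order. Their sums overlapped between the molecules, as for monocytes and macrophages, 41.9 to 639 CPM with WT and 28.9 to 158 CPM with 3x, for B cells, 230 to 375 and 130 to 517 CPM, and for NK cells, 237 to 596 and 238 to 414 CPM. Within the arms some were called. In the isotype arm, where 8.97% of all genes were higher and 12.8% lower, 4 of the B cell genes were higher with 3x, and 3 NK cell, 2 monocyte and macrophage, 4 dendritic cell, 6 eosinophil and basophil, 6 Treg, 3 neutrophil and 7 erythroid genes were lower. In the MHC II block arm, where 1.05% were higher and 3.4% lower, 4 B cell, 3 NK cell, 7 monocyte and macrophage and 7 neutrophil genes were lower, and 1 eosinophil and basophil gene was higher. The monocyte and macrophage sums of that arm were 639 and 311 CPM with WT and 158 and 151 CPM with 3x, without overlap. The genes with the highest level in these lists were Cd79a (-0.47 ± 0.51, adjusted p = 0.61), Gzma (-0.06 ± 0.82, adjusted p = 0.97), Cd8b1 (-0.70 ± 0.37, adjusted p = 0.27), Lyz2 (-1.05 ± 0.86, adjusted p = 0.49), Itgax (-0.63 ± 0.60, adjusted p = 0.56) and Prg2 (-1.23 ± 0.51, adjusted p = 0.17), and in the T cell list Cd4 (0.14 ± 0.18, adjusted p = 0.67). The part of these cells in the results on Tcon genes was not tested.

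Over both arms, edgeR called proliferation genes at shares near the 9.4% over all genes, so that nothing is read from those counts. Of 34 mitotic genes, 0 were higher and 3 lower with 3x (background 4.53% and 4.86%), with a median of -0.58. Of 38 genes of DNA replication and S phase, 0 were higher and 4 lower, with a median of -0.36. All 34 and all 38 had a log2 fold change below 0. At an unadjusted p under 0.05 by edgeR there were 26 of the 34 and 23 of the 38, where 2858 of all 12526 genes were. Mki67, the marker of dividing cells, was at 419, 234, 412 and 324 CPM with WT and 159.5, 105, 272 and 239.5 CPM with 3x (log2 fold change -0.88 ± 0.21 (SE), adjusted p = 0.033). The lower values were those of the isotype 3x libraries, and the MHC II block 3x libraries overlapped WT. Prc1 (-0.66 ± 0.20, adjusted p = 0.076) and Cenpf (-0.67 ± 0.21, adjusted p = 0.081) were lower, as were E2f2 (-0.47 ± 0.12, adjusted p = 0.046), Mcm6 (-0.34 ± 0.09, adjusted p = 0.053), Slbp (-0.27) and Rrm2 (-0.81 ± 0.26, adjusted p = 0.095). Top2a, with 137 to 220.2 CPM with WT and 72.6 to 194 CPM with 3x, did not pass (-0.51 ± 0.19, adjusted p = 0.13), nor did Dnmt1 (-0.05 ± 0.08, adjusted p = 0.74). DESeq2 called 12 genes of each list, where it called 1789 of 12526 genes. Against PBS, 29 of the 34 mitotic genes were higher with WT and 0 with 3x (background 14.8% and 4.71%). Plasmablasts and erythroid precursors also divide, and the part of the cells behind the plasma cell and erythroid sums in these counts was not tested.

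Interferon-stimulated genes were called by edgeR at a share near the 9.4% over all genes, so that nothing is read about the lists from it. EdgeR called 5 of 44 type I interferon genes and 3 of 31 interferon-gamma and GTPase response genes. DESeq2 called 8 and 5, where it called 1789 of 12526 genes. Of the 44 type I interferon genes, Slfn1 was higher (0.40 ± 0.11, adjusted p = 0.056) and 4 were lower with 3x, among them Isg20 (-0.76 ± 0.15, adjusted p = 0.012), Isg15 (-0.55 ± 0.14, adjusted p = 0.036) and Ifit3 (-0.60 ± 0.18, adjusted p = 0.077). Isg15 was at 15.3, 20.8, 38.5 and 38.6 CPM with WT and 11.2, 11.8, 27.4 and 28.6 CPM with 3x, with the higher values of both molecules under MHC II block. Irf7 (0.04 ± 0.09, adjusted p = 0.796) and Samhd1 (-0.03 ± 0.10, adjusted p = 0.87) did not pass. The 3 of the interferon-gamma list were lower: the chemokine Cxcl10, at 11.2, 23.6, 48.9 and 43.7 CPM with WT and 7.55, 5.58, 14.2 and 14.3 CPM with 3x (log2 fold change -1.56 ± 0.22 (SE), adjusted p = 0.0021), Ly6a (Sca-1; -0.65 ± 0.10, adjusted p = 0.0034) and Gbp3 (-0.40 ± 0.11, adjusted p = 0.048). Cxcl10 was lower in each 3x pair than in the WT pair of the same antibody, although the isotype WT values overlapped the MHC II block 3x values. Of 8 GIMAP GTPases, Gimap7 was lower (-0.34 ± 0.10, adjusted p = 0.072) and Gimap6 was 0.09 ± 0.08, adjusted p = 0.52.

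Metabolic and growth lists had 1 to 6 called genes each, where 9.4% of all genes were called; the share was below that for oxidative phosphorylation and not far above it for the Myc list. Of 25 glycolytic genes, 3 were higher, with Eno1 (0.29 ± 0.05, adjusted p = 0.0043), Pdk1 (0.36 ± 0.08, adjusted p = 0.024) and Ldhb (0.34 ± 0.09, adjusted p = 0.041), and the lactate exporter Slc16a3 was lower (-0.68 ± 0.16, adjusted p = 0.030); Pkm was 0.04 ± 0.05, adjusted p = 0.65. Of 31 sterol and fatty acid genes, 4 were higher and 2 lower, with Srebf2 (0.23 ± 0.06, adjusted p = 0.033) and Hmgcs1 (0.21 ± 0.06, adjusted p = 0.074) higher, Scd2 (-0.40 ± 0.12, adjusted p = 0.065) and Ebp (-0.19 ± 0.06, adjusted p = 0.074) lower, and Acly at 0.07 ± 0.05, adjusted p = 0.42. Of 45 subunits of oxidative phosphorylation, Ndufa4 alone was called, lower with 3x (-0.23 ± 0.07, adjusted p = 0.076), and Atp5b was 0.00 ± 0.07, adjusted p = 0.99. Of 32 Myc and ribosome biogenesis genes, Wdr43 (0.20 ± 0.05, adjusted p = 0.034), Ddx21 (0.14 ± 0.04, adjusted p = 0.061) and Rrp9 (0.27 ± 0.08, adjusted p = 0.080) were higher, and Odc1, the first enzyme of polyamine synthesis, was lower at 334, 363, 288 and 335 CPM with WT and 242, 264, 192 and 209 CPM with 3x (log2 fold change -0.55 ± 0.06 (SE), adjusted p = 0.00069), without overlap. Myc itself (0.28 ± 0.14, adjusted p = 0.26) and Ncl (0.00 ± 0.07, adjusted p = 0.98) did not pass. Of 28 ATF4 and amino acid genes, 4 were lower: Chac1 (-1.67 ± 0.32, adjusted p = 0.011), Slc3a2 (-0.24 ± 0.05, adjusted p = 0.015), Pycr1 (-1.45 ± 0.32, adjusted p = 0.022) and Atf5 (-0.53 ± 0.13, adjusted p = 0.035), with Atf4 at -0.10 ± 0.05, adjusted p = 0.28, and 23 of the 28 had a log2 fold change below 0. In the list of 27 Bcl2 family and death genes, Casp8 (0.17 ± 0.04, adjusted p = 0.027) was higher along with Bcl2, 2 genes including Bcl2l2 (-0.34 ± 0.11, adjusted p = 0.079) were lower, and Mcl1 was 0.09 ± 0.06, adjusted p = 0.44.

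**Figure D4:**
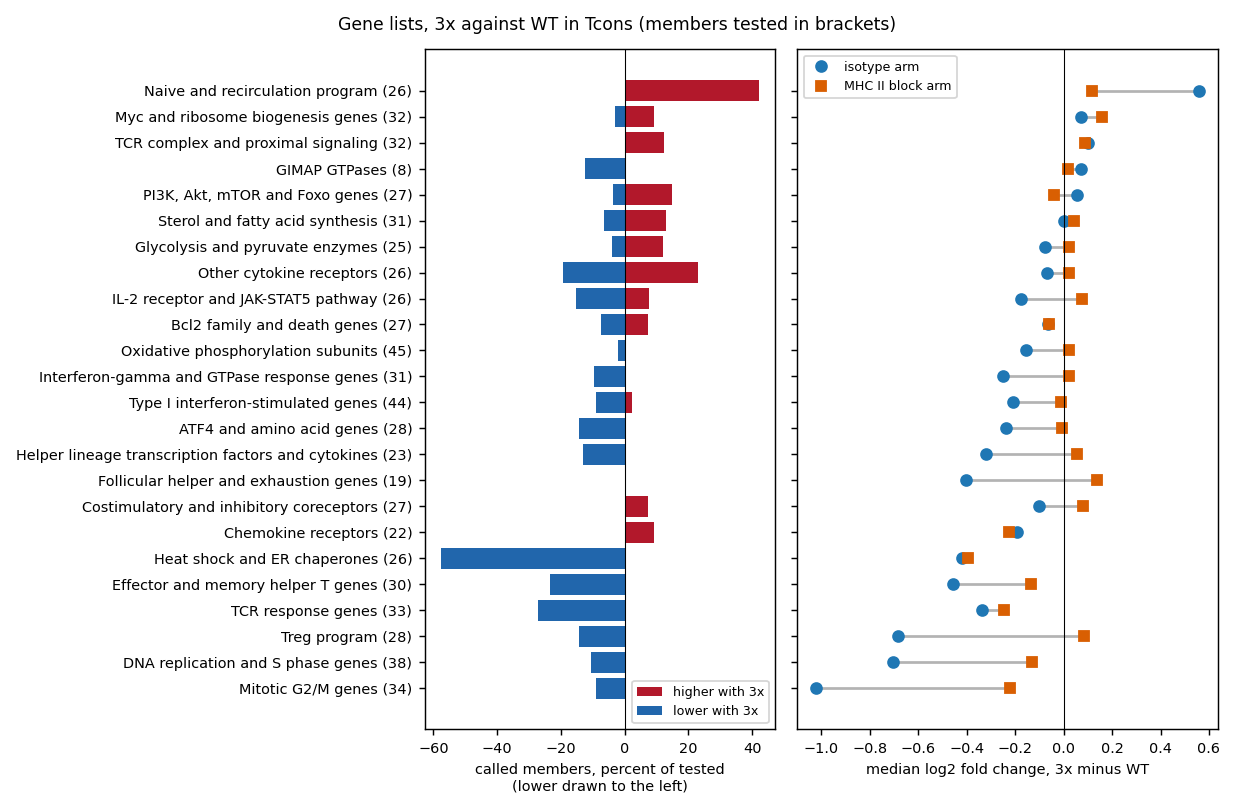
Left, members of 24 gene lists called higher or lower with 3x than with WT in Tcons, as percent of the members tested, with lower drawn to the left; right, median log2 fold change of each list in the isotype and the MHC II block arm. The naive list has 11 of 26 members higher and the heat shock and ER chaperone list 15 of 26 lower, and the mitotic, S phase and Treg program lists have medians further below 0 in the isotype arm.

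Each antibody arm was then examined alone, in a model of the 8 Tcon groups, with 2 libraries against 2. In the isotype arm 1123 genes (8.97%) were higher and 1600 (12.8%) lower with 3x, 21.7% in all, and in the MHC II block arm 132 (1.05%) were higher and 426 (3.4%) lower, 4.45% in all. The arms share no library. Over all 12526 genes the log2 fold changes of the arms had a Pearson correlation of 0.366, a description across genes, which are not independent replicates. Of the calls of each arm, 66 genes were higher and 190 lower in both, which is 9.4% of the isotype calls and 45.9% of the MHC II block calls, and 8 and 12 genes were called in opposite directions. The isotype count was 523 without isotype 3x replicate 2, 1445 without isotype 3x replicate 1 and 4889 without isotype WT replicate 2, and the MHC II block count was 50 without MHC II block 3x replicate 1, 92 without MHC II block WT replicate 1 and 136 without MHC II block 3x replicate 2. The MHC II block count was 1377 and 1375 when isotype WT replicate 1 or 2 was dropped, libraries that enter that arm only through the shared estimate of the spread. With scaling by total counts alone, 246 genes were called higher and 345 lower in the MHC II block arm.

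Some lists had called members in both arms and others nearly all in the isotype arm. TCR response genes had 11 of 33 members lower in the isotype arm (background 12.8%) and 12 lower in the MHC II block arm (3.4%), with medians of -0.34 and -0.24. Heat shock and ER chaperones had 16 and 9 of 26 lower, with medians of -0.42 and -0.40, and plasma cell markers 6 and 5 of 6 lower, with medians of -2.44 and -1.29. By contrast, mitotic genes had 34 of 34 lower in the isotype arm and 0 in the MHC II block arm (medians -1.02 and -0.22), S phase genes 26 and 0 of 38 (-0.70 and -0.13), the Treg program 16 and 2 of 28 lower (-0.68 and 0.09), and the naive program 21 and 2 of 26 higher (background 8.97% and 1.05%; medians 0.56 and 0.12). No interaction was called by edgeR or limma for any of the 34 mitotic or 38 S phase genes, with 11 and 13 at an unadjusted p under 0.05 and 1 and 3 called by DESeq2, so a difference between the arms was not shown for most of them. Nor was it for most of the Treg program and naive genes: edgeR and limma each called an interaction for 1 of 28 and 1 of 26, DESeq2 for 5 and 8, and 14 and 16 had an unadjusted p under 0.05. In the MHC II block arm the Treg program also had 2 members higher and the naive program 1 lower. The Treg program count of 16 was 8 without isotype WT replicate 2, the library with the highest Treg marker sum, 9 without isotype 3x replicate 1 and 8 with limma. Without isotype 3x replicate 2, 2 mitotic, 3 S phase, 3 Treg program and 4 TCR response genes were called lower in the isotype arm, and 13 naive genes higher. Without isotype WT replicate 1, the library with the highest erythroid sum, 9 mitotic, 10 S phase and 20 TCR response genes were lower there. Without isotype 3x replicate 1, 5 TCR response and 10 chaperone genes were. In the MHC II block arm, leaving out any 1 of its 4 libraries left 1 to 3 chaperone genes and 0 or 1 plasma cell gene called, and the TCR response count was 4 without MHC II block 3x replicate 1 and 6 without MHC II block WT replicate 1. Plasma cell genes numbered 2 there without isotype 3x replicate 2, and chaperone genes 14 without either isotype WT library.

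The difference between the arms, tested as an interaction, was called for 44 genes higher (0.351%) and 62 lower (0.495%) with MHC II block, 0.846% in all. DESeq2 called 164 higher and 228 lower, 392 in all. Of the marker lists, edgeR called an interaction for 2 of 10 B cell, 3 of 9 neutrophil and 2 of 8 eosinophil and basophil genes, limma for 0, 6 and 2, and DESeq2 for 8, 5 and 4. Mcpt1, a mast cell protease, was at 12.9, 13.5, 8.2 and 10.7 CPM with WT and 5.97, 6.02, 81.3 and 49.1 CPM with 3x, which gave -1.14 ± 0.27 (adjusted p = 0.020) in the isotype arm, 2.79 ± 0.26 (adjusted p = 0.0012) in the MHC II block arm and an interaction of 3.93 ± 0.37 (adjusted p = 0.0027), on the log2 scale. Elane had an interaction of 2.08 ± 0.38 (adjusted p = 0.045) and the basophil protease Mcpt8 of 2.15 ± 0.27 (adjusted p = 0.0082). Pax5, of B cells, was at 30.2, 21.8, 29.2 and 20.4 CPM with WT and 46.7, 61.1, 10.1 and 12.3 CPM with 3x (interaction -2.20 ± 0.48, adjusted p = 0.089), and the complement receptor Cr2 had the lowest, -4.36 ± 0.76 (adjusted p = 0.042). The neutrophil genes Retnlg, Ccl6 and Csf3r were lower with 3x under MHC II block and not called with isotype, with interactions of -3.38, -2.34 and -1.85. Lif, a cytokine of the IL-6 family, was at 7.76, 13.2, 4.35 and 6.17 CPM with WT and 5.64, 4.74, 13.4 and 11.7 CPM with 3x (interaction 2.27 ± 0.34, adjusted p = 0.028). Il7r had 0.65 ± 0.11 (adjusted p = 0.0043) in the isotype arm, -0.26 ± 0.10 (adjusted p = 0.28) in the MHC II block arm and an interaction of -0.91 ± 0.15 (adjusted p = 0.036), and Tspan9, higher in both arms, had one of 1.02 ± 0.18 (adjusted p = 0.043). The count of 106 was 14 without isotype 3x replicate 2, 16 without MHC II block 3x replicate 1, 39 without MHC II block 3x replicate 2, 48 without MHC II block WT replicate 1, 1214 without isotype WT replicate 1 and 2906 without isotype WT replicate 2. Scaling by total counts alone called 60 higher and 49 lower.

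**Figure D5:**
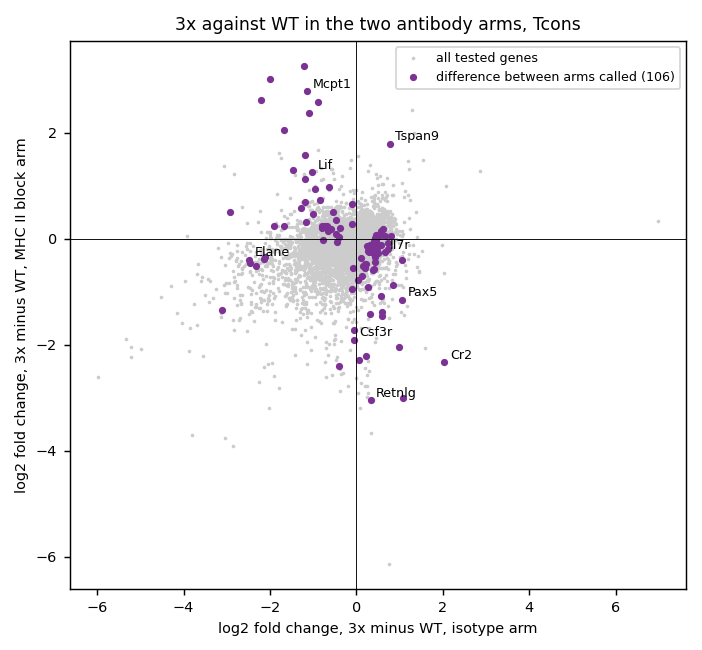
Log2 fold change of 3x minus WT in the isotype arm (horizontal axis) against that in the MHC II block arm (vertical axis), 1 point per gene, with the 106 genes whose difference between the arms was called in purple. Mcpt1 lies above 0 with MHC II block and below 0 with isotype, and Pax5 and Cr2 lie the other way.

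The Treg libraries of the same mice allowed the change from WT to 3x to be compared between the cell types, with the mouse as a block. Of 12844 genes, 2243 (17.5%) had a higher log2 change in Tregs than in Tcons and 2264 (17.6%) a lower one, 35.1% in all. The proliferation genes were on the first side. Mki67 differed by 1.77 ± 0.15 (adjusted p = 5.1e-06) between the cell types, with 208 to 309 CPM with WT and 335 to 524 CPM with 3x in Tregs, while it was lower with 3x in Tcons. Aspm (1.92 ± 0.16, adjusted p = 5.1e-06), Cenpf (1.95 ± 0.14, adjusted p = 1.9e-06) and Top2a (1.42 ± 0.13, adjusted p = 6.4e-06) differed in the same direction. In all, 34 of 34 mitotic and 31 of 38 S phase genes had a higher change in Tregs. Ifitm1 and Ifitm3, antiviral membrane proteins, had the largest differences in that direction among genes above 5 CPM, 3.03 ± 0.40 (adjusted p = 0.00011) and 2.28 ± 0.23 (adjusted p = 1.3e-05), and Car5b, a mitochondrial carbonic anhydrase, had 1.94 ± 0.23 (adjusted p = 4e-05). On the other side were B cell genes, Cr2 (-2.44 ± 1.05, adjusted p = 0.099), Spib (-1.53 ± 0.62, adjusted p = 0.078) and Tlr9 (-1.62 ± 0.50, adjusted p = 0.028), and the basophil protease Prss34 (-1.63 ± 0.66, adjusted p = 0.089). In the Treg libraries the B cell marker sum was 693 CPM in MHC II block WT replicate 1 and 36.9 to 115 CPM in the other 7. Without that mouse, none of these 4 genes passed: Cr2 was -1.27 ± 0.83 (adjusted p = 0.31), Spib -0.73 ± 0.46 (adjusted p = 0.300), Tlr9 -0.94 ± 0.41 (adjusted p = 0.13) and Prss34 -0.74 ± 0.62 (adjusted p = 0.45). That fit was added with the data already seen.

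The genes that led the Tcon comparison differed in whether Tregs shared the change. Bcl2 had a lower change in Tregs by -0.82 ± 0.17 (adjusted p = 0.0026), with 129 to 151 CPM with WT and 101 to 182 CPM with 3x there, and Il4ra by -0.68 ± 0.09 (adjusted p = 7.5e-05), with 270.2 to 384 CPM with WT and 358 to 371 CPM with 3x. Igfbp4 in Tregs was 21.9 to 26.9 CPM with WT and 41.7 to 118 CPM with 3x, and its change did not pass the test of the difference (0.39 ± 0.17, adjusted p = 0.11), nor did those of Jchain (-0.08 ± 0.43, adjusted p = 0.92) and Eaf2 (0.08 ± 0.39, adjusted p = 0.897). Fosb in Tregs was 1413 to 1788 CPM with WT and 508 to 1165 CPM with 3x (-0.01 ± 0.14, adjusted p = 0.96 for the difference), and Nfkbia was 988 to 1335 CPM with WT and 895 to 1243 CPM with 3x (0.73 ± 0.09, adjusted p = 4e-05). Entpd1 differed by 1.06 ± 0.08 (adjusted p = 5e-06). Of the 26 naive genes, 14 had a lower change in Tregs and 1 a higher one (background 17.6% and 17.5%).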

How the data were processed

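RNA was measured by stranded polyA sequencing of single-mouse libraries, of which the 8 WT and 3x Tcon libraries form the comparison. The authors used the OSA aligner of the Omicsoft software and RSEM for gene levels, and deposited expected counts per gene, which were rounded to whole numbers here, and FPKM values per gene. Gene coordinates are those of GENCODE vM21 on GRCm38. The authors' own DESeq2 comparisons of Tregs (fold changes, adjusted p-values and test statistics) were also deposited and were not used.

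Protein-coding genes above 0.5 CPM in at least 4 libraries were tested with edgeR 4.0.16 (quasi-likelihood test, TMM scaling, Benjamini-Hochberg adjustment) at an adjusted p under 0.1, with drug and antibody as terms over 16 Tcon libraries. The antibody arms and their interaction came from a model of 8 groups, and the difference between Tregs and Tcons from a fit with the mouse as a block. SE is the log2 fold change divided by the square root of the F statistic. Where 1 isotype or block group was reduced to 1 library, that library was assumed to vary like the others. Self-tests on simulated counts of 12526 genes set changes only in genes with a mean above 5 CPM. They recovered 98% of 2-fold and 80% of 1.5-fold changes for the main comparison, but 79% and 34% for the interaction. DESeq2 1.42.0, limma 3.58.1 on log2(FPKM + 1), other scalings, filters and left-out libraries were alternatives.

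Named genes were the 12 largest rises and 12 largest falls among called genes with a mean above 5 CPM, 20 set genes, up to 5 in each direction for the interaction and for the cell type difference, and from each list up to 4 called members and 1 not called; further called members of a list, and genes shown to complete a count, were named after their values were seen. The members, lists and tests were chosen with earlier results of these data known. The ER stress element and the ATF6/XBP1 site were chosen after the data were seen. The labels say that mice were processed singly. Some named genes are withheld and not reported here.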

Additional observations from a re-analysis of the deposited data

Results flagged for a closer look

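Single libraries lay far from the other 3 of their molecule in 6 of 110 groups of 4 values examined by Dixon's test, which chance would give in about 1 of 20 groups. MHC II block WT replicate 1 had 31.4 CPM of Mrc1, against 1.68 to 5.26 CPM in the other WT libraries, and a summed level of CD8 T cell markers of 75.3 CPM, against 20.6 to 26.0 CPM. Isotype WT replicate 2 had 514 CPM of Ikzf2, a transcription factor of Tregs, against 114 to 179 CPM. Isotype WT replicate 1 had 60.2 CPM of Irf7, against 69.7 to 70.6 CPM. MHC II block 3x replicate 1 had 10.0 CPM of Hbb-bs, against 1.1 to 2.36 CPM, and a CD8 T cell sum of 24.2 CPM, against 15.0 to 16.5 CPM.

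The change from WT to 3x differed between the antibody arms, by the interaction test, for 106 genes. For the 5 in each direction with the largest difference among genes above 5 CPM, the differences on the log2 scale, MHC II block minus isotype, were Mcpt1 (3.93), Mcpt4 (2.78), Lif (2.27), Mcpt8 (2.15), Elane (2.08), Cr2 (-4.36), Retnlg (-3.38), Ccl6 (-2.34), Pax5 (-2.20) and Csf3r (-1.85). It differed between the cell types, Treg minus Tcon, for Ifitm1 (3.03), Ifitm3 (2.28), Cenpf (1.95), Car5b (1.94), Aspm (1.92), Cr2 (-2.44), Prss34 (-1.63), Tlr9 (-1.62) and Spib (-1.53). The last 4 did not pass without the mouse of MHC II block WT replicate 1.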

How the results depend on the processing

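With 2 libraries in each group, the counts of called genes rested on single libraries. With 1 of the 8 libraries left out they ranged from 426 to 1994 for 3x against WT (1177 with all), 523 to 4889 in the isotype arm (2723), 50 to 1377 in the MHC II block arm (558), 14 to 2906 for the interaction (106), 1825 to 5397 for WT against PBS (3412), 513 to 2218 for 3x against PBS (1238) and 3253 to 4767 for the Treg difference (4507). The highest counts were those without isotype WT replicate 2, except in the MHC II block arm and for the Treg difference.

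With a fold change of at least 1 on the log2 scale, counts were 154, 625, 184, 48, 370, 149 and 529 in that order, and at an adjusted p under 0.05 they were 582, 1649, 284, 57, 2066 and 600 for the first 6. DESeq2 called 1789 genes for 3x against WT and 392 for the interaction. The 8 libraries alone gave 744 genes (240 higher, 504 lower), the mean of the arms in the 8-group model 2812, all biotypes 2000 for 3x against PBS, and the Treg difference without the mouse block 2548. The split of calls moved with limma on log2(FPKM + 1), to 1016 higher and 534 lower. For these counts the cause was not tested.

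With the replicate block, 985 genes were called for 3x against WT, 2636 and 499 in the arms and 91 for the interaction. The numbers are only names: deviations of same-numbered libraries correlated at -0.23 to 0.31 over 28 pairs of groups, 6 of them over 0.1. Of 2771 log2 fold changes of 163 named genes under the alternatives, 2451 kept the side of the threshold, 290 lost the call and 30 gained it. Direction reversed for 0 of the values called in the main fit or under the alternative. Sign changes of genes called in neither were not counted.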
